A study of Mus musculus with 12 samples.

Results

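The genes described here are 10 components of Toll-like receptor signalling: the receptors Tlr2, Tlr3, Tlr4, Tlr5, Tlr7 and Tlr9, the co-receptors Cd14 and Ly96, the adaptor Myd88 and the inhibitor Irak3. They were chosen by gene name from 56748 genes listed, with earlier results of these data known. All 10 passed the filter on low counts, as did 15465 genes in all. Liver RNA was sequenced from 12-week-old mice bearing pancreatic ductal adenocarcinoma (PDAC), in 12 libraries that fall into 4 groups of 3. The isotype group is the control, which the labels call both an isotype antibody control and no treatment. The agoCD40 group received an antibody that activates CD40, a receptor on antigen-presenting cells. The antiIL1R1 group received an antibody that blocks IL-1R1, the receptor of interleukin-1. The Combo group received both antibodies. All groups carry the tumour, so a tumour-free level is not analysed here. The labels name no strain, tumour model, antibody dose or time of dosing. No label ties a library to an animal of its own, so every p-value measures the spread between these libraries, which may be technical.

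Toll-like receptors recognise conserved microbial molecules and some molecules released from damaged cells. TLR2, TLR4 and TLR5 sit on the cell surface and sense lipoproteins, lipopolysaccharide and flagellin. TLR3, TLR7 and TLR9 sit in endosomes and sense double-stranded RNA, single-stranded RNA and unmethylated CpG DNA. CD14 passes lipopolysaccharide to TLR4 and its partner MD-2, which Ly96 encodes. MyD88 carries the signal of every receptor named here other than TLR3, and it also carries the signal of IL-1R1, the target of the blocking antibody. IRAK-M, the product of Irak3, restrains that signal. In liver, many of these genes are expressed by Kupffer cells, recruited monocytes and endothelium, and the liver meets microbial products arriving from the gut through the portal vein.

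The libraries held 18681390 to 27118712 counts. Mitochondrial transcripts took 6.23% to 14.8% of them, with isotype 2 at 14.1% and antiIL1R1 2 at 14.8%, and these 2 libraries also stood apart on the first principal component. Hepatocyte markers were high in every library: 6 of 6 were tested and their summed level was 57000 to 93400 CPM, counts scaled to a common library size. CPM values below use TMM (trimmed mean of M-values) library sizes and are compared within a gene. Overlap between groups is judged in CPM unless TPM is named. TPM values are corrected for transcript length and are used to compare levels between genes. These are whole-tissue samples, so fewer cells of a type and less RNA per cell cannot be told apart in any result below.

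The adaptor Myd88 and the co-receptor gene Ly96 had the highest levels of the 10, and the DNA sensor Tlr9 had the lowest. Median TPM over the 12 libraries was 10.4 for Myd88, 9.62 for Ly96, 3.79 for Cd14, 2.76 for Tlr5, 1.68 for Tlr3 and 1.36 for Tlr2. It was 0.577 for Irak3, 0.509 for Tlr7, 0.394 for Tlr4 and 0.120 for Tlr9. The MD-2 gene thus had 24.4 times the median TPM of its receptor Tlr4, and Myd88 had 18.1 times that of its inhibitor Irak3 and 86.8 times that of Tlr9. Each pair of neighbours in this order overlapped over the 12 libraries. Myd88 ranged from 7.97 to 14.5 TPM and Ly96 from 7.22 to 17.6 TPM. Tlr3 ranged from 1.24 to 2.57 TPM and Tlr2 from 0.796 to 2.89 TPM. Irak3 ranged from 0.287 to 1.19 TPM, Tlr7 from 0.198 to 1.51 TPM and Tlr4 from 0.156 to 0.843 TPM.

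**Figure D1:**
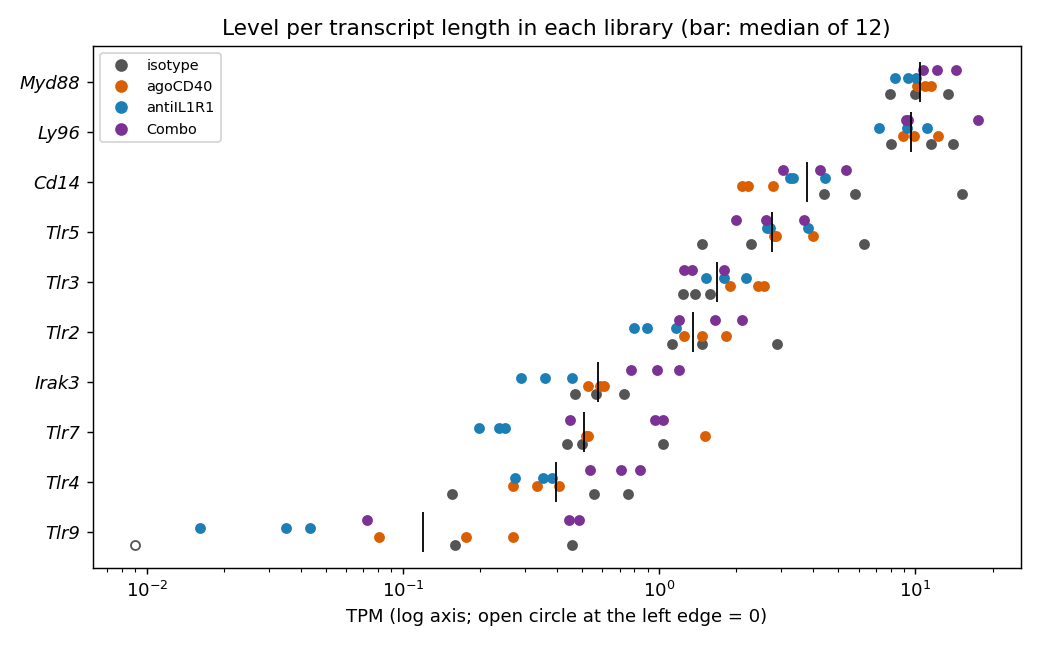
TPM of the 10 genes (rows, ordered by median) on a log axis in each of the 12 liver libraries, coloured by group, with a bar at the median. Myd88 and Ly96 lie near 10 TPM in all groups, and Tlr9 is lowest, with 1 library at 0 drawn as an open circle at the left edge.

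Promoter sequence from RefSeq (GRCm38.p6) was matched for 6 of the 10 genes, in 7 entries. The 250 bases before the start are shown for Tlr2, Tlr9 and Irak3, whose CPM in Combo lay above that in antiIL1R1 without overlap, and for Tlr3, which behaved differently. This choice was made after their values were seen. They are printed 5′ to 3′ on the gene's strand, with motif matches in capitals. The motifs searched on both strands were an NF-kB pattern (GGGNNNNNCC), an interferon-stimulated response element (GAAANNGAAA), an AP-1 pattern (TGANTCA) and a PU.1 pattern (GAGGAAGT).
Tlr2, chr3:83841609-83841858, minus strand: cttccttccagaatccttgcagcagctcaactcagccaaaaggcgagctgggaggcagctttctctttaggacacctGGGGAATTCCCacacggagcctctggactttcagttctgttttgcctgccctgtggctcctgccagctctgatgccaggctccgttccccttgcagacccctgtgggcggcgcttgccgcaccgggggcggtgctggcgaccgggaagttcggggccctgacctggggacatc
Tlr9, chr9:106222348-106222597, plus strand: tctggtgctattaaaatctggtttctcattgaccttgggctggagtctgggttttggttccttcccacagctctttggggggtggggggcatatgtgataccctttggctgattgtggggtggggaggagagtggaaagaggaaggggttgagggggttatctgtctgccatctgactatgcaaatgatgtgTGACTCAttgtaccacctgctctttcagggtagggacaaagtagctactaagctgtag
Irak3, chr10:120201598-120201847, minus strand: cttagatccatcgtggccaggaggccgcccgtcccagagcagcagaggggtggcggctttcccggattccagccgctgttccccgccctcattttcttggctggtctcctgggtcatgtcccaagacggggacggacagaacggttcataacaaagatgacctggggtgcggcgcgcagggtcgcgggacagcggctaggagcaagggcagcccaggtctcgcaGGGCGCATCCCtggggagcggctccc
Tlr3, chr8:45410381-45410630, minus strand: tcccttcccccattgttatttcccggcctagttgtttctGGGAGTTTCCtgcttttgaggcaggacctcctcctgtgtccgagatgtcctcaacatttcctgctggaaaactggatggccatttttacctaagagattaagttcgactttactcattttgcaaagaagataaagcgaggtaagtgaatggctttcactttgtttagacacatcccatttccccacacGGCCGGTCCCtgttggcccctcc
Tlr2 held 3 overlapping NF-kB matches within GGGGAATTCCC, from position -173 to -163 of the start. Irak3 held 2 overlapping NF-kB matches within GGGCGCATCCC, from -26 to -16. Tlr3 held 2 separate NF-kB matches, GGGAGTTTCC from -211 to -202 and GGCCGGTCCC, read on the gene's strand, from -23 to -14. Tlr9 held none of these and 1 AP-1 match, TGACTCA, from -58 to -52. Of the entries not printed, Tlr5 held 1 NF-kB match, Myd88 held 1 interferon-stimulated response element, GAAAGCGAAA, and the second Irak3 entry held no match. The NF-kB pattern is loose and occurred in 45.8% of 32851 promoter windows of the same length, against 6.75% for AP-1, 2.98% for the interferon element and 2.44% for PU.1. A match is a description of the letters in the window and no evidence of binding.

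Among the surface receptors, Tlr2 had its lowest values under the blocking antibody alone. In CPM, Tlr4 and Tlr5 varied mainly between libraries of one group. Tlr2 (ENSMUSG00000027995), which senses bacterial lipoproteins, was at 3.38, 3.67 and 6.45 CPM in isotype 1, 2 and 3, at 3.99, 4.09 and 3.35 CPM in agoCD40, at 2.82, 2.57 and 2.62 CPM in antiIL1R1, and at 4.63, 3.72 and 2.99 CPM in Combo. In CPM all 3 antiIL1R1 libraries lay below every other library, and isotype 3 lay above all others. In TPM the groups overlapped, with antiIL1R1 1 at 1.17 TPM and isotype 2 at 1.12 TPM. Tlr4 (ENSMUSG00000039005), the lipopolysaccharide receptor, was at 1.77, 0.703 and 2.34 CPM in isotype, 1.53, 1.03 and 0.994 CPM in agoCD40, 1.18, 1.23 and 1.55 CPM in antiIL1R1, and 2.57, 1.68 and 1.52 CPM in Combo. The 4 groups overlapped in CPM, the lowest library was isotype 2, and the counts behind these values were 14 to 63 per library. In TPM Combo, at 0.538 to 0.843, lay above agoCD40, at 0.268 to 0.406, and antiIL1R1, at 0.274 to 0.383. Isotype, at 0.156 to 0.755 TPM, overlapped the other groups. Tlr5 (ENSMUSG00000079164), the flagellin receptor, was at 15.6, 6.93 and 6.16 CPM in isotype, 10.4, 10.4 and 7.95 CPM in agoCD40, 10.3, 6.90 and 11.0 CPM in antiIL1R1, and 4.25, 8.13 and 10.6 CPM in Combo. Its highest library was isotype 1 and its lowest Combo 1, and all groups overlapped.

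The co-receptors differed from each other: Cd14 was highest in the control libraries, and Ly96 was at a similar level in all groups. Cd14 (ENSMUSG00000051439) was at 5.58, 6.38 and 16.3 CPM in isotype, 2.63, 2.29 and 3.50 CPM in agoCD40, 3.64, 4.41 and 6.15 CPM in antiIL1R1, and 4.38, 5.45 and 3.37 CPM in Combo. Isotype 3 stood far above the other 11 libraries. Without it, the remaining isotype libraries still lay above all agoCD40 and Combo libraries in CPM, but isotype 1 lay below antiIL1R1 3. In TPM isotype 2, at 4.40 TPM, lay below Combo 2, at 5.34 TPM. Ly96 (ENSMUSG00000025779) was at 3.48, 3.72 and 4.01 CPM in isotype, 3.31, 2.99 and 4.455 CPM in agoCD40, 2.37, 4.94 and 3.57 CPM in antiIL1R1, and 5.18, 2.80 and 3.16 CPM in Combo. The isotype libraries lay within the range of each treated group.

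The endosomal receptors each had their own pattern. Tlr3 (ENSMUSG00000031639) was at 4.40, 4.37 and 4.15 CPM in isotype, 7.13, 4.90 and 6.92 CPM in agoCD40, 4.05, 4.90 and 5.88 CPM in antiIL1R1, and 4.68, 4.20 and 4.34 CPM in Combo. The agoCD40 libraries lay above every isotype and Combo library and overlapped antiIL1R1. Tlr7 (ENSMUSG00000044583) was at 1.39, 1.81 and 2.97 CPM in isotype, 1.83, 1.51 and 1.77 CPM in agoCD40, 0.774, 0.817 and 0.913 CPM in antiIL1R1, and 2.91, 2.76 and 1.43 CPM in Combo. All 3 antiIL1R1 libraries lay below the other 9, in TPM as well, where agoCD40 2 stood apart at 1.51 TPM against 0.527 and 0.517 TPM in the other agoCD40 libraries. Tlr9 (ENSMUSG00000045322) was at 0.429, 0 and 1.19 CPM in isotype, 0.255, 0.700 and 0.552 CPM in agoCD40, 0.0455, 0.163 and 0.119 CPM in antiIL1R1, and 1.14, 1.28 and 0.211 CPM in Combo. Its 3 antiIL1R1 libraries lay below all agoCD40 and Combo libraries, and the lowest library of all was isotype 2. These Tlr9 values rest on 0 to 32 counts per library, with 8 counts in the antiIL1R1 group as a whole, and the 0 counts of isotype 2 allow up to 0.151 CPM (3 counts, counting error only).

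Of the adaptor and the inhibitor, Myd88 was at a similar level in all groups and Irak3 was highest in Combo. Myd88 (ENSMUSG00000032508) was at 14.3, 16.2 and 18.5 CPM in isotype, 19.3, 15.1 and 17.1 CPM in agoCD40, 14.0, 17.0 and 18.0 CPM in antiIL1R1, and 19.6, 17.0 and 16.7 CPM in Combo. All groups overlapped. Irak3 (ENSMUSG00000020227) was at 1.34, 1.46 and 1.67 CPM in isotype, 1.70, 1.18 and 1.62 CPM in agoCD40, 0.592, 1.43 and 0.794 CPM in antiIL1R1, and 2.70, 2.28 and 1.94 CPM in Combo. The 3 Combo libraries lay above the other 9. Single libraries carried several extremes: Combo 1 was highest for 4 genes and lowest for Tlr5, isotype 3 was highest for Cd14, Tlr2 and Tlr7, and antiIL1R1 1 was lowest for 5 genes.

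**Figure D2:**
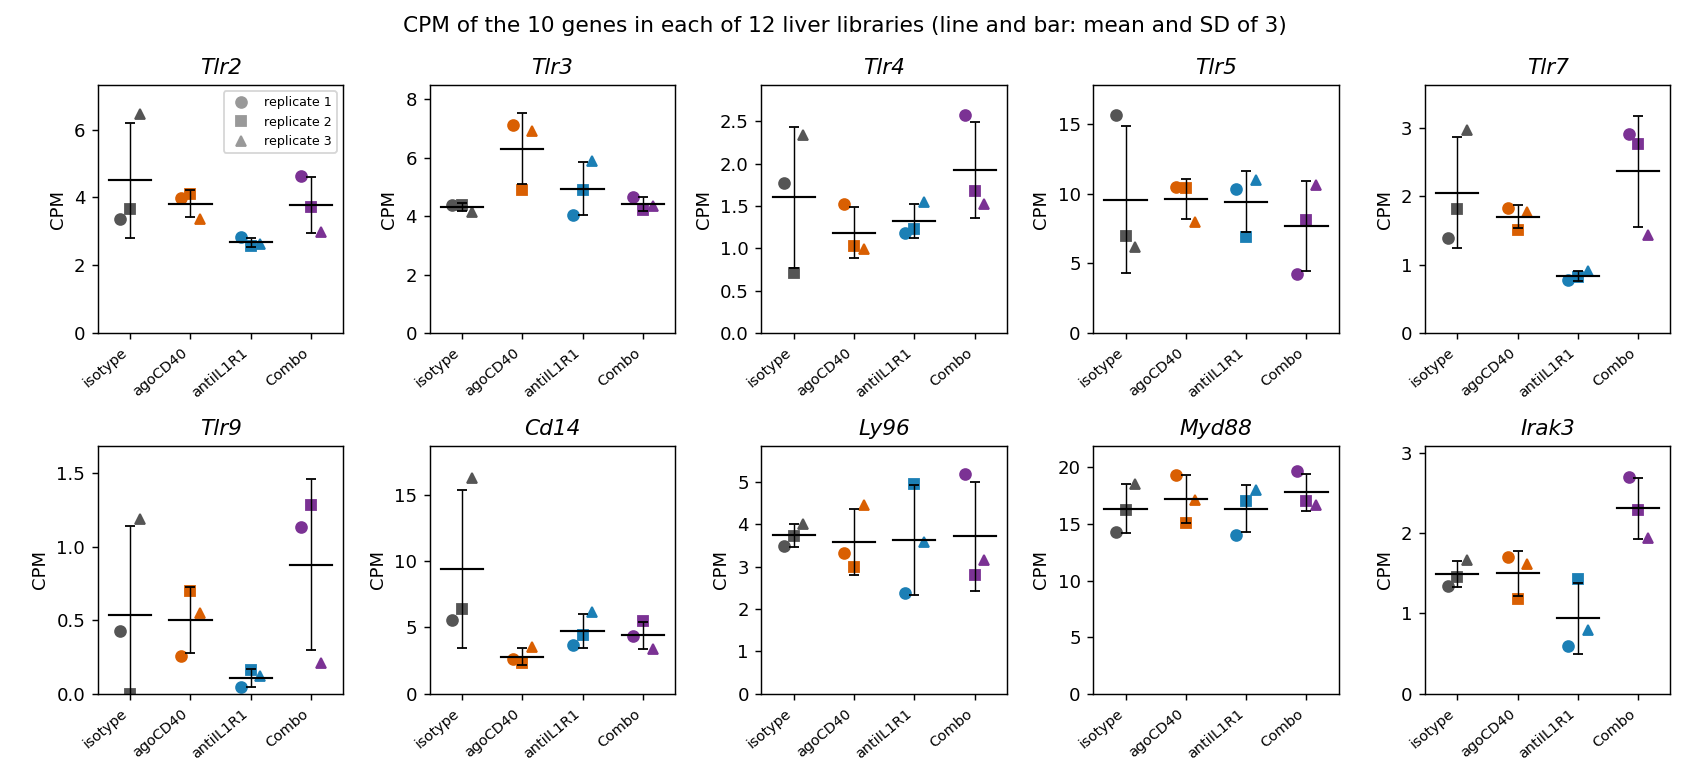
CPM of each of the 10 genes by group, with 1 point per library (circle, square and triangle for replicates 1, 2 and 3) and the mean with SD of 3 libraries as line and bar. The antiIL1R1 points of Tlr2 and Tlr7 sit below all others, the Combo points of Irak3 above all others, and isotype 3 far above the rest for Cd14.

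Across the 6 comparisons fitted, none of the 10 genes passed edgeR's quasi-likelihood test at an adjusted p under 0.05 (Benjamini-Hochberg over all 15465 genes). The comparisons share groups, so they are not independent of each other. In agoCD40 against isotype, the effect of the agonist alone, 0 of 10 passed, against 0.718% of all genes tested. At an unadjusted p under 0.05 there were 1 higher and 1 lower, against 10.2% of all genes. DESeq2 called 1 of the 10, against 2.58% of all genes, and limma on log2(TPM + 1) called 0, against 0.382%. Cd14 was lower without overlap, at 2.81 ± 0.625 CPM (SD, n = 3) in agoCD40 and 9.41 ± 5.96 CPM in isotype, and its log2 fold change was -1.75 ± 0.40 (SE), with a 95% interval of -2.61 to -0.89 and an edgeR adjusted p of 0.0741. The adjusted p was 0.00181 by DESeq2, 0.000174 by edgeR with no filter on low counts (which called 1.68% of all genes) and 0.0416 without isotype 1, and it reached 0.241 among the alternatives. Without isotype 3 the log2 fold change was -1.09. Tlr3 was higher without overlap, at 6.32 ± 1.23 CPM in agoCD40 and 4.31 ± 0.133 CPM in isotype, with a log2 fold change of 0.55 ± 0.22 and an edgeR adjusted p of 0.398. Groups without overlap were found for 14.4% of all genes here. The other 8 genes had log2 fold changes of -0.245 for Tlr2, -0.44 for Tlr4, 0.01 for Tlr5, -0.28 for Tlr7, -0.13 for Tlr9, -0.06 for Ly96, 0.07 for Myd88 and 0.01 for Irak3, with overlapping groups. The intervals for Myd88 (-0.28 to 0.42) and Ly96 (-0.76 to 0.64) bound how far these could lie from 0.

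Markers of Kupffer cells, the resident macrophages of the liver, were also lower in agoCD40 than in isotype. The 8 markers, all of them tested, summed to 287 to 466 CPM in isotype and 133 to 205 CPM in agoCD40, and their defining marker Clec4f was at 104 to 139 CPM and 29.2 to 43.5 CPM. Of the 8, Clec4f, Vsig4, Cd163 and Folr2 passed edgeR's test as lower. Cd5l and Marco overlapped, and the log2 fold change of Marco was -0.21. Isotype 3, the library with the most Cd14, had the highest sum of the 12 libraries. The Kupffer sum was 227 to 278 CPM in antiIL1R1 and 170 to 221 CPM in Combo. B-cell markers went the other way in this comparison. The 6 markers, all tested, summed to 11.4 to 54.3 CPM in agoCD40 and 5.30 to 6.83 CPM in isotype. Ms4a1 and Cd79a passed edgeR's test as higher, and Cd79b overlapped. Summed neutrophil markers overlapped, at 39.9 to 73.3 CPM against 19.2 to 44.8 CPM. The granule gene Camp, at 0 in all 3 isotype libraries, passed as higher. Within that list S100a8, S100a9, Mmp8 and Ngp also had positive log2 fold changes. Csf3r (-1.13, without overlap), Cxcr2 (-1.77) and Retnlg (-0.15) had negative ones, and none but Camp passed. The part of these marker differences in the Cd14 and Tlr3 values was not tested.

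In antiIL1R1 against isotype, the effect of blockade alone, 9 of the 10 log2 fold changes were negative, against 8291 of all 15465 genes. Their median was -0.47 against -0.02 over all genes. With RLE scaling 8 of 10 were negative, and that of Myd88 was 0.01. Without isotype 3, those of Tlr4 (0.098), Ly96 (0.013) and Myd88 (0.102) turned positive. In edgeR's test 0 of 10 passed, as did 0% of all genes. At an unadjusted p under 0.05 there were 3 lower and 0 higher, against 3.65% of all genes (565). DESeq2 called none of the 10, against 0.0194% of all genes (3), and limma called none of the 10, against 0%. Tlr7 was lower without overlap, at 0.835 ± 0.0714 CPM against 2.06 ± 0.816 CPM, with a log2 fold change of -1.30 ± 0.39 and an edgeR adjusted p of 0.987. Tlr2 was also lower, without overlap in CPM but with overlap in TPM. It was at 2.67 ± 0.132 CPM against 4.50 ± 1.70 CPM, with a log2 fold change of -0.76 ± 0.29 and the same adjusted p. Groups without overlap were found for 6.43% of all genes. Cd14 (-0.99 ± 0.39) had an unadjusted edgeR p of 0.0234 with overlapping groups, and Tlr9 (-2.27 ± 1.12) one of 0.0636. Without isotype 3 these 4 log2 fold changes were -0.93 for Tlr7, -0.40 for Tlr2, -0.33 for Cd14 and -0.91 for Tlr9. Irak3 had a log2 fold change of -0.66 ± 0.39, Tlr3 one of 0.20 ± 0.22, Tlr4 one of -0.29 ± 0.44 and Tlr5 one of -0.02 ± 0.38. The intervals were -0.35 to 0.35 for Myd88 and -0.74 to 0.66 for Ly96.

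Summed neutrophil markers were also lower in antiIL1R1 than in isotype without overlap, whereas summed B-cell markers were not. The neutrophil list, 8 of 9 genes tested, summed to 4.49 to 12.6 CPM in antiIL1R1 against 19.2 to 44.8 CPM in isotype, and its first marker Ly6g was at 0 in 4 of 12 libraries. Within it Ly6g, Mmp8, Ngp and Camp overlapped. Camp had a positive log2 fold change (1.87), resting on 0.0397 CPM in antiIL1R1 3. The list of monocytes and recruited macrophages, 8 of 8 genes tested, summed to 70.4 to 96.2 CPM against 85.0 to 196 CPM, with its first marker Ly6c2 at 0 in isotype 2. Ptprc, the gene of the pan-leukocyte protein CD45, was at 6.51, 6.53 and 12.0 CPM in antiIL1R1 and 10.45, 10.9 and 16.8 CPM in isotype. Both of these overlapped between the groups. B-cell markers summed to 5.42 to 8.85 CPM in antiIL1R1 against 5.30 to 6.83 CPM, and the Kupffer sums given above were lower in antiIL1R1 without overlap. Of the Kupffer list, Timd4, Cd5l, Cd163 and Marco overlapped. None of these list genes passed edgeR's test here. Their part in the Tlr7 and Tlr2 values was not tested.

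In Combo against isotype, 0 of 10 genes passed edgeR's test, against 0.407% of all genes tested. At an unadjusted p under 0.05 there were 1 lower and 0 higher, against 11.5% of all genes. Neither DESeq2 (2.44% of all genes called) nor limma (0.382%) called any of the 10. Cd14 was lower, without overlap in CPM but with overlap in TPM. It was at 4.40 ± 1.04 CPM in Combo and 9.41 ± 5.96 CPM in isotype, with a log2 fold change of -1.10 ± 0.39 and an edgeR adjusted p of 0.295. Without isotype 3 the log2 fold change was -0.44. Irak3 was higher without overlap, at 2.31 ± 0.379 CPM against 1.49 ± 0.167 CPM, with a log2 fold change of 0.63 ± 0.38 and an edgeR adjusted p of 0.560. Groups without overlap were found for 16.3% of all genes. The other 8 log2 fold changes, all with overlapping groups, were -0.26 for Tlr2, 0.03 for Tlr3, 0.25 for Tlr4, -0.31 for Tlr5, 0.20 for Tlr7, 0.66 for Tlr9 (interval -1.42 to 2.75), -0.01 for Ly96 and 0.12 for Myd88. Summed Kupffer markers (170 to 221 CPM in Combo against 287 to 466 CPM) and summed hepatocyte markers (57000 to 61460 CPM against 70530 to 93400 CPM) were lower in Combo without overlap. Of these, the Kupffer markers Clec4f, Vsig4, Cd163 and Folr2 passed edgeR's test as lower, and no hepatocyte marker passed. The Kupffer markers Cd5l and Marco overlapped. Most of the hepatocyte sum was Alb, at 38080 to 41480 CPM against 47890 to 60250 CPM. Of the other hepatocyte markers, Ttr was lower without overlap, and Apoa1, Cyp2e1, Asgr1 and Serpina1a overlapped. B-cell markers (22.45 to 33.1 CPM against 5.30 to 6.83 CPM) were higher without overlap, and Cd79a and the neutrophil gene Camp passed as higher. The neutrophil gene Csf3r was lower without overlap, at 3.45 to 4.97 CPM in Combo against 5.63 to 10.9 CPM, and the neutrophil sums overlapped. The part of these marker differences in the Cd14 and Irak3 values was not tested.

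In Combo against agoCD40, which asks what blockade added to the agonist, 0 of 10 genes passed edgeR's test, against 0.00647% of all genes tested. At an unadjusted p under 0.05 there were 1 lower and 0 higher, against 6.21% of all genes. Neither DESeq2 (0.557% of all genes called) nor limma (0.00647%) called any of the 10. Tlr3 was lower without overlap, at 4.41 ± 0.242 CPM in Combo and 6.32 ± 1.23 CPM in agoCD40, with a log2 fold change of -0.52 ± 0.22 and an edgeR adjusted p of 0.781. Irak3 was higher without overlap, with a log2 fold change of 0.62 ± 0.37 and an edgeR adjusted p of 0.812. Groups without overlap were found for 14.7% of all genes. Cd14 had a log2 fold change of 0.65 ± 0.39 with overlapping groups, and its interval was -0.20 to 1.50. The other 7, also with overlap, had log2 fold changes of -0.01 for Tlr2, 0.70 for Tlr4, -0.32 for Tlr5, 0.48 for Tlr7, 0.79 for Tlr9, 0.05 for Ly96 and 0.05 for Myd88. Summed markers of monocytes and recruited macrophages were higher in Combo without overlap, at 167 to 208 CPM against 125 to 157 CPM. Most of this sum was Lyz2, at 146.5 to 178 CPM against 101.7 to 134 CPM. Of the rest, Ly6c2 was higher without overlap, and Ccr2, Cx3cr1, Chil3, Plac8, Fcgr1 and Itgam overlapped. The part of these markers in the Irak3 values was not tested.

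In Combo against antiIL1R1, which asks what the agonist did under blockade, groups without overlap were more frequent over all genes (22.2%) than in the other 4 pairwise comparisons, and 4 of the 10 genes were higher in Combo without overlap. This count stood against 12.3% of all genes that were higher without overlap in this comparison. Again 0 of 10 passed edgeR's test, against 0.175% of all genes tested. At an unadjusted p under 0.05 there were 3 higher and 0 lower, against 15.3% of all genes. Tlr7 was at 2.37 ± 0.812 CPM in Combo and 0.835 ± 0.0714 CPM in antiIL1R1, with a log2 fold change of 1.50 ± 0.39, an interval of 0.65 to 2.35 and an edgeR adjusted p of 0.138. Irak3 was at 2.31 ± 0.379 and 0.938 ± 0.437 CPM, with a log2 fold change of 1.29 ± 0.38, an interval of 0.46 to 2.12 and an edgeR adjusted p of 0.175. DESeq2 called both, with adjusted p-values of 0.0231 for Tlr7 and 0.0497 for Irak3, while limma called neither. DESeq2 called 3.15% of all genes here, and limma 0.297%. Tlr9 had 64 counts over the Combo libraries and 8 over the antiIL1R1 libraries, and its log2 fold change was 2.93 ± 1.11 with an edgeR adjusted p of 0.258. Tlr2 had a log2 fold change of 0.50 ± 0.29 and an edgeR adjusted p of 0.422. The other 6, with overlapping groups, had log2 fold changes of -0.17 for Tlr3, 0.54 for Tlr4, -0.29 for Tlr5, -0.11 for Cd14, 0.03 for Ly96 and 0.12 for Myd88. Of the 3 genes among these with promoter windows above, which were printed because of these values, Tlr2 and Irak3 held NF-kB matches and Tlr9 an AP-1 match. The NF-kB pattern occurred in 45.8% of all windows, and Tlr3, which was not higher here, held it too. A link between motif and level was not tested.

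**Figure D3:**
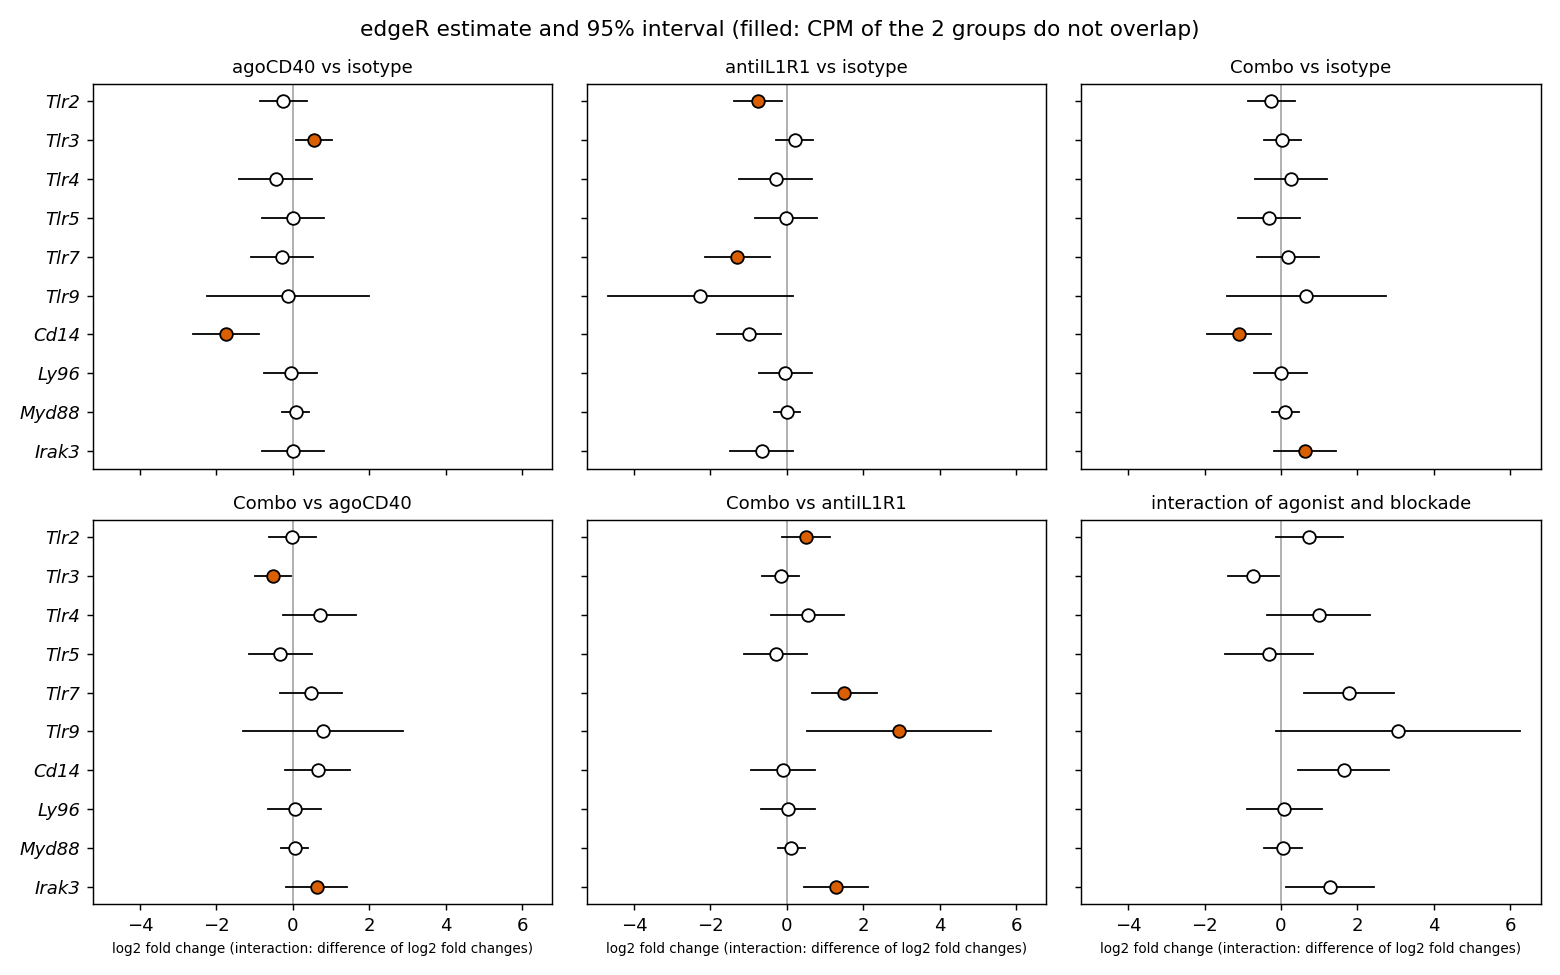
Log2 fold change (edgeR) with its 95% interval for each gene in the 5 pairwise comparisons, and the difference of log2 fold changes in the interaction panel. Filled points mark genes whose CPM did not overlap between the compared groups; Tlr9 has the widest intervals, and those of Myd88 cross 0 in every panel.

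The summed markers of several white blood cells were higher in Combo than in antiIL1R1 as well, and the sums for Kupffer cells and hepatocytes were lower. Neutrophil markers summed to 28.4 to 65.5 CPM in Combo against 4.49 to 12.6 CPM, and 4 of the 8 tested (S100a8, S100a9, Ngp and Camp) passed edgeR's test as higher. The monocyte and recruited macrophage list summed to 167 to 208 CPM against 70.4 to 96.2 CPM. B-cell markers, 6 of 6 tested, summed to 22.45 to 33.1 CPM against 5.42 to 8.85 CPM. Kupffer markers summed to 170 to 221 CPM against 227 to 278 CPM, with Clec4f and Cd163 passing edgeR's test as lower, and hepatocyte markers to 57000 to 61460 CPM against 81850 to 92400 CPM. None of these 5 sums overlapped between the groups, but not every gene followed its sum. Cd5l of the Kupffer list was higher in Combo without overlap, at 88.65 to 135.7 CPM against 61.78 to 78.33 CPM, and Marco and Fcna overlapped. Most of the hepatocyte sum was Alb, at 38080 to 41480 CPM in Combo, and Apoa1, Cyp2e1, Asgr1 and Serpina1a overlapped. Most of the monocyte and recruited macrophage sum was Lyz2, at 146.5 to 178 CPM against 58.71 to 73.8 CPM. In that list Ccr2, Plac8, Fcgr1 and Itgam overlapped. Ly6g, Csf3r, Cxcr2 and Mmp8 of the neutrophil list and Cr2 of the B-cell list overlapped too. TLR7 and TLR9 are known from plasmacytoid dendritic cells, and none of that list's 4 genes passed the filter: their sum was 1.43 CPM or less in every library. The part of these cells in the Tlr2, Tlr7, Tlr9 and Irak3 values was not tested.

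**Figure D4:**
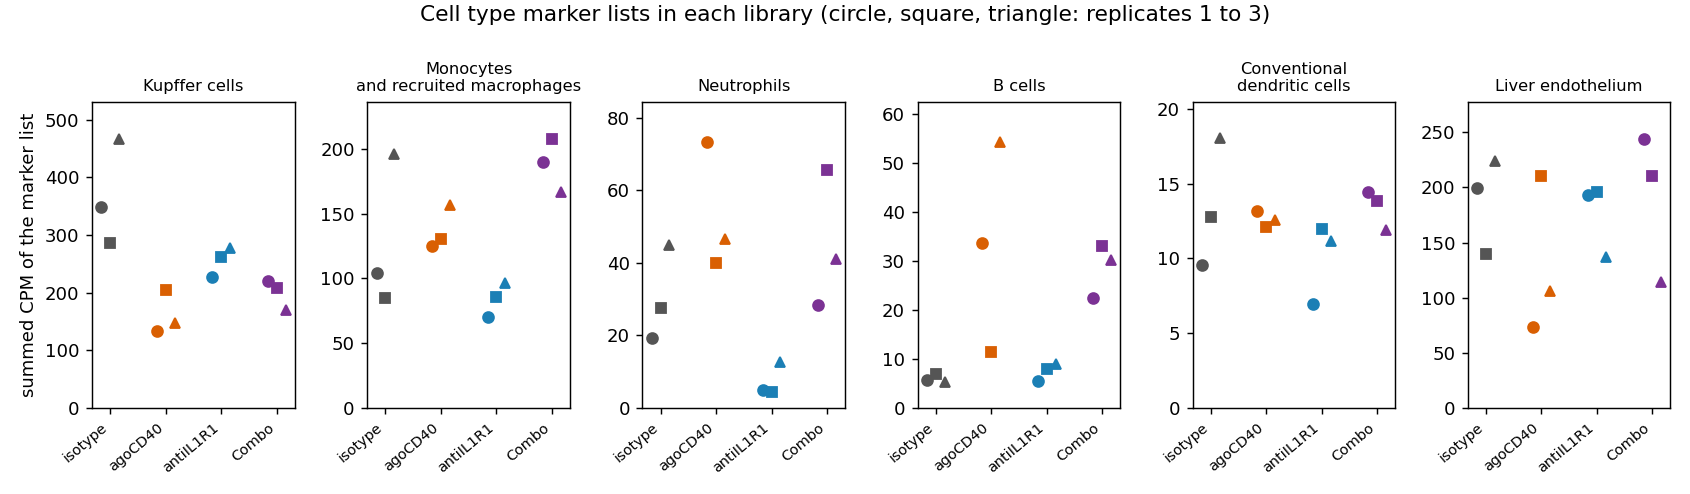
Summed CPM of 6 cell type marker lists in each library, by group (circle, square and triangle for replicates 1, 2 and 3). Kupffer cell markers are highest in isotype 3 at 466 CPM, and neutrophil markers are lowest in antiIL1R1 at 4.49 to 12.6 CPM.

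The interaction asks whether the agonist's effect differed with and without blockade, as the log2 change from antiIL1R1 to Combo minus that from isotype to agoCD40. Positive estimates were found for 8 of the 10 genes, with a median of 0.87 against 0.03 over all genes. Of all 15465 genes, 8173 had a positive estimate. In edgeR's test 0 of 10 passed, against 0.00647% of all genes tested. At an unadjusted p under 0.05 there were 3 higher and 1 lower, against 7.51% of all genes. Neither DESeq2 (0.586% of all genes called) nor limma (0%) called any of the 10. The largest estimate, 3.06 ± 1.47, was that of Tlr9, the gene with the fewest counts, with an interval of -0.13 to 6.25 and an edgeR adjusted p of 0.684. The estimate was 1.78 ± 0.54 for Tlr7, with an edgeR adjusted p of 0.538. It was 1.64 ± 0.55 for Cd14 (0.544), 1.28 ± 0.54 for Irak3 (0.642) and -0.72 ± 0.31 for Tlr3 (0.649), with adjusted p-values from edgeR in parentheses. For Cd14 the 2 parts were -0.11 ± 0.39 under blockade and -1.75 ± 0.40 without it, and for Tlr7 they were 1.50 ± 0.39 and -0.28 ± 0.38. Without isotype 3 the estimates were 1.41 for Tlr7 and 0.98 for Cd14. Estimates were 0.75 ± 0.41 for Tlr2, 0.99 ± 0.62 for Tlr4 and -0.31 ± 0.53 for Tlr5. The intervals of these 3, of Myd88 (-0.44 to 0.54) and of Ly96 (-0.89 to 1.08) crossed 0.

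The wider pathway was described with 64 further genes in 7 lists by role, of which 56 were tested. Only 2 of these genes passed edgeR's test in any comparison, and both are chemokine genes that the pathway induces. In Combo against isotype, 2 of the 56 were called lower and 0 higher, against 24 lower and 39 higher of all 15465 genes. Cxcl1, which attracts neutrophils, was at 25.8, 43.5 and 27.3 CPM in isotype, 12.7, 8.52 and 14.8 CPM in agoCD40, 18.6, 42.0 and 54.4 CPM in antiIL1R1, and 2.86, 3.72 and 8.64 CPM in Combo. Its Combo libraries were low against isotype and antiIL1R1 without overlap, and overlapped agoCD40. It fell by 2.66 ± 0.45 on the log2 scale from isotype to Combo (edgeR adjusted p = 0.0264) and differed by -2.92 ± 0.46 between Combo and antiIL1R1 (edgeR adjusted p = 0.0245). Direction held in 22 of 22 alternatives for both, and the threshold was passed in 16 and 17 of them. Leaving out isotype 1, isotype 2, Combo 1 or Combo 2 ended the first call (adjusted p up to 0.150), and leaving out antiIL1R1 2, antiIL1R1 3, Combo 1 or Combo 2 ended the second (up to 0.144). Ccl2, which attracts monocytes, was at 1.45, 0.954 and 4.79 CPM in isotype and 0.169, 0.320 and 0.211 CPM in Combo. It fell by 3.34 ± 0.64 on the log2 scale (edgeR adjusted p = 0.0473), but passed in only 6 of 22 alternatives, and among those that leave out 1 library only without isotype 2. Without isotype 3 its log2 fold change was -2.33.

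By role, the 7 receptors outside the 10 (Tlr1, Tlr6, Tlr8, Tlr11, Tlr12, Tlr13 and Cd180) had positive log2 fold changes in 7 of 7 cases in Combo against antiIL1R1, with a median of 1.06 against 0.03 over all genes, and negative ones in 6 of 7 in antiIL1R1 against isotype, with a median of -0.73 against -0.02. Of all 15465 genes, 8088 were positive in the former comparison and 8291 negative in the latter. None of these 7 receptors passed edgeR's test in any comparison. In agoCD40 against isotype, the smallest p-values of the 56 belonged to Tlr12, Tlr8 and Lbp. Tlr12, a sensor of profilin, was at 9.22, 5.22 and 6.05 CPM in isotype and 18.9, 14.4 and 11.0 CPM in agoCD40, higher without overlap (log2 fold change 1.11 ± 0.24, edgeR adjusted p = 0.0653). Tlr8, an endosomal receptor related to Tlr7, was at 1.23, 0.904 and 1.71 CPM in isotype and 0.382, 0.258 and 0.184 CPM in agoCD40, lower without overlap (-2.21 ± 0.55, edgeR adjusted p = 0.101). Lbp, which delivers lipopolysaccharide to CD14, was at 70.7 ± 10.7 CPM in agoCD40, 67.8 ± 3.73 CPM in antiIL1R1, 66.5 ± 5.15 CPM in Combo and 116 ± 36.3 CPM in isotype. Its edgeR adjusted p-values against isotype were 0.161, 0.987 and 0.138.

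In antiIL1R1 against isotype, Lbp, Cxcl2 (-2.25 ± 0.84) and Ccl2 (-1.46 ± 0.57) had the smallest p-values of the 56, each with an edgeR adjusted p of 0.987. In Combo against agoCD40, they belonged to Tlr8 (2.03 ± 0.55, edgeR adjusted p = 0.464), Cxcl1 (-1.24 ± 0.44, 0.691) and Ccl2 (-1.69 ± 0.64, 0.745). In the interaction, they belonged to Tlr8 (3.27 ± 0.75, edgeR adjusted p = 0.286), Nfkbia, which encodes the NF-kB inhibitor IkB-alpha (0.52 ± 0.18, 0.576), and Rela, which encodes an NF-kB subunit (0.44 ± 0.18, 0.642). The 16 kinases and ubiquitin ligases downstream of the receptors had medians of -0.16 to 0.09 in all 6 comparisons and none passed. The 8 tested genes of the 16 induced by the pathway had medians of -1.53 in agoCD40 against isotype, -0.74 in antiIL1R1 against isotype and -2.04 in Combo against isotype, and the 8 others did not reach the count filter. The median over all genes was -0.02 in each. Ccl5 went the other way in agoCD40 (1.46 ± 0.55, edgeR adjusted p = 0.347) and in Combo (2.05 ± 0.55, 0.163, without overlap). In antiIL1R1 Cxcl1 did so, at 0.25. Group means were at most 0.778 CPM for Il6 and 0.956 CPM for Cxcl2.

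**Figure D5:**
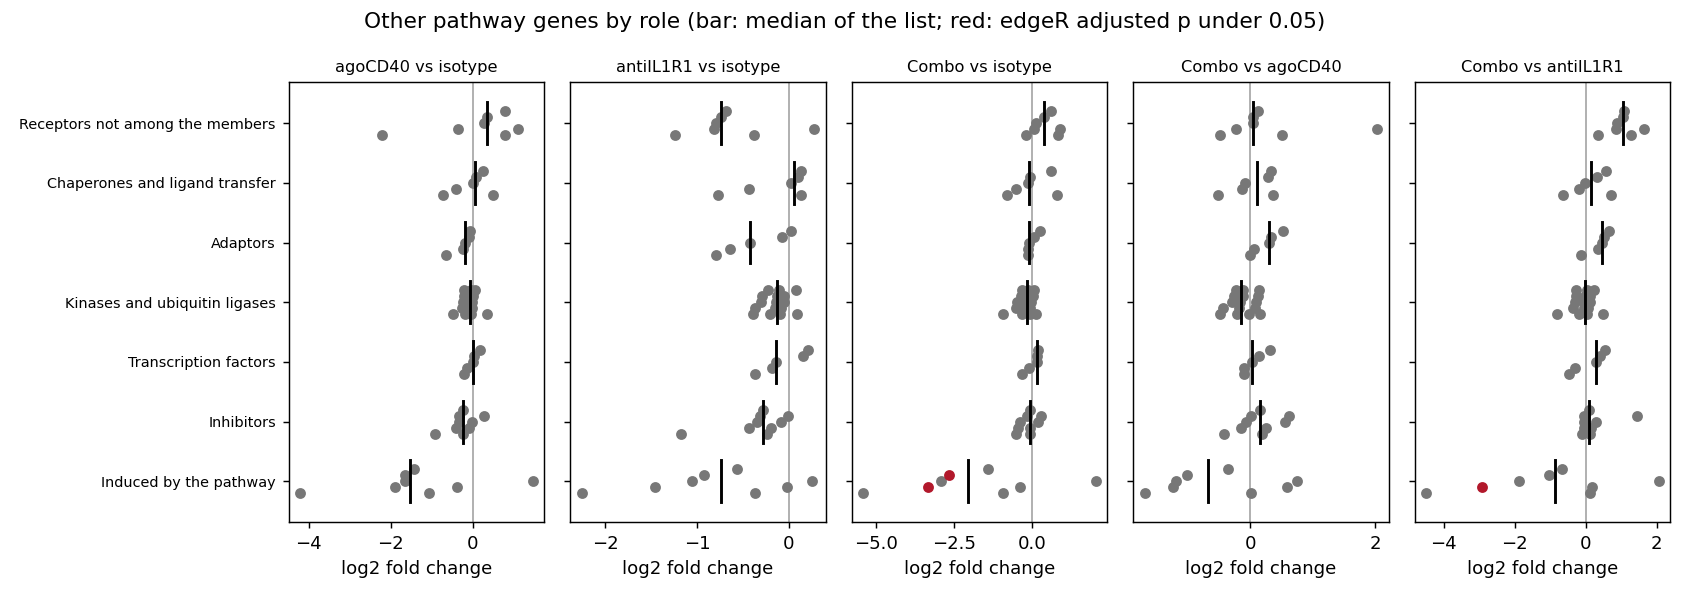
Log2 fold change (edgeR) of the 56 tested pathway genes outside the 10, in rows by role, for the 5 pairwise comparisons, with a bar at each list's median and red for an adjusted p under 0.05. The red points are Cxcl1 and Ccl2 in Combo against isotype and Cxcl1 in Combo against antiIL1R1, and the axis range differs between panels.

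Over the 12 libraries, the 10 genes did not vary as one block. These correlations of log2 CPM describe libraries that share groups and depth, and they carry no test. The highest of the 45 pairs over all libraries was Tlr2 with Tlr7 (Pearson r 0.850, and 0.827 after removing group means), followed by Tlr7 with Irak3 (0.798, and 0.429 within groups) and Tlr7 with Tlr9 (0.714, and 0.592). After removing group means, the order changed: Tlr2 with Tlr7 was followed by Tlr7 with Cd14 (0.825, against 0.335 over all libraries) and Ly96 with Irak3 (0.821, against 0.479). Tlr5 ran against the rest: its r was negative with 8 of the 9 others, lowest with Ly96 (-0.633), and negative with 9 of 9 after removing group means. By the same measure over 11895 genes, the genes most like each of the 10 differed. Cd14 was closest to Emilin2 (r 0.940, Spearman rho 0.923), Atp1b3 (0.935, 0.860) and Il1a (0.924, 0.923). Tlr7 was closest to Cerk (0.930, 0.916), Myo1f (0.928, 0.839) and Itgb2, a leukocyte integrin subunit (0.913, 0.804). Irak3 was closest to Gbp9 (0.958, 0.972), Arhgap27 (0.944, 0.902) and H2-M3 (0.941, 0.867). Tlr2 was closest to Il17ra (0.938, 0.916), Ifngr1 (0.916, 0.881) and Agtr1a (0.896, 0.916). Tlr9 was closest to Slc29a3 (0.945, 0.944), Parvb (0.939, 0.951) and Adamts9 (0.935, 0.944). Tlr3 was closest to Samd9l (0.924, 0.790), Uros (0.891, 0.881) and Mterf4 (0.861, 0.503), and Tlr4 to Gas2l1 (0.891, 0.867), Itgb3 (0.885, 0.811) and Nadk (0.880, 0.797). Tlr5 was closest to Glo1 (0.942, 0.832), Usp9x (0.939, 0.832) and Farsb (0.932, 0.923). Ly96 was closest to Tm6sf1 (0.878, 0.846), Dclk2 (0.873, 0.923) and Cdc42ep2 (0.865, 0.874), and Myd88 to Gpx8 (0.894, 0.860), Arhgef6 (0.878, 0.895) and Jpt1 (0.877, 0.832).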

How the data were processed

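Poly(A)-enriched liver RNA was sequenced in 12 libraries, 4 groups of 3. The authors deposited a table of expected counts and a table of TPM per gene, both named in the file headers, with 1 column per library. Per the submitters' processing notes, the build was GRCm39 and the tools were Trim Galore 0.6.7, cutadapt, FastQC 0.12.1, STAR, SAMtools 1.16.1, Picard 3.0.0, RSEM 1.3.1, StringTie 2.2.1, bedtools 2.30.0 and DESeq2 1.28.0. The names of the deposited tables point to salmon, which those notes do not list, so the tool that made the counts and TPM is not settled. No label or header says whether strand was used, so reads of overlapping antisense genes cannot be told apart.

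Expected counts, 13% of them not whole, were rounded. Genes were kept with filterByExpr (minimum count 10), scaled by TMM and tested with edgeR 4.0.16 (quasi-likelihood, 1 mean per group over all 12 libraries) in R 4.3.3, with Benjamini-Hochberg adjustment over all 15465 genes and a threshold of 0.05. DESeq2 1.42.0 and limma 3.58.1 (log2 of TPM plus 1 or 0.1) were alternatives. SE is the log2 fold change divided by the square root of F, and 95% intervals use the t quantile. The scripts were tested on simulated counts. Library totals of 18681390 to 27118712 make Tlr9, at 0 to 32 counts, the least precise of the 10 genes.

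The 10 genes were named in every comparison. Of 64 further pathway genes in 7 lists by role (other receptors, chaperones and ligand transfer, adaptors, kinases and ubiquitin ligases, transcription factors, inhibitors, induced genes), every gene past the threshold was named, otherwise the 3 with the smallest p. For likeness, the 3 genes with the highest Pearson r of log2 CPM (prior count 2) were named, among genes of at least 1 CPM on average. The genes and lists were chosen with earlier results of these data known.

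Replicate numbers are shared between groups. Same-numbered libraries deviated together with a median r of -0.0262 over 18 pairs (-0.395 to 0.406, 2 of them over 0.1). Those 2 were isotype 1 with antiIL1R1 1 (0.401) and isotype 2 with antiIL1R1 2 (0.406). For isotype 3 with antiIL1R1 3 it was 0.0564. With this median, the numbers were not used as a block.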

Additional observations from a re-analysis of the deposited data

How the results depend on the processing

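Of 1308 values of the 10 genes under 22 alternatives, 1222 kept their direction, and the 86 that did not belonged to reported estimates no larger than 0.476 on the log2 scale. Only 5 passed the threshold, all given in the report. The cause of the changes below was not tested. Over all genes, edgeR with the settings of the report called 111 in agoCD40 against isotype, 0 in antiIL1R1 against isotype and 63 in Combo against isotype. It called 1 gene when Combo was set against agoCD40, 27 against antiIL1R1 and 1 for the interaction. In that order, DESeq2 called 399, 3, 377, 86, 486 and 87 genes, and edgeR without a filter on low counts called 466, 63, 466, 197, 742 and 232. The replicate block, fitted though the numbers did not pair the libraries, gave 72, 0, 23, 2, 9 and 0, with none of the 10 genes called. Only 4 of 12 libraries were closest to their own number. Fits on only the groups compared gave 28, 0, 9, 4 and 69, with no such fit for the interaction. With mitochondrial percent as a covariate, agoCD40 against isotype gave 256, Combo against isotype 292, Combo against agoCD40 11 and the interaction 3. Limma with pseudocounts of 1 and 0.1 gave 59 and 67 in agoCD40 against isotype, 46 and 44 in Combo against antiIL1R1 and 0 and 0 in the interaction. Without isotype 2 and antiIL1R1 2 together, Combo gave 35 against isotype and 10 against antiIL1R1, and the interaction 0. Total-count scaling gave 0 in the interaction. It moved the median of all genes by 0.129 in Combo against isotype and 0.161 in Combo against antiIL1R1. Its calls there split 52 higher to 10 lower and 32 to 5, against 39 to 24 and 20 to 7 with TMM, and 42 to 48 against 42 to 69 in agoCD40 against isotype. DESeq2 called 1 of the 10 genes in agoCD40 against isotype and 2 in Combo against antiIL1R1, and edgeR without the filter called 1 in the former. Leaving out 1 library gave 28 to 108 genes called in agoCD40 against isotype, with 0 to 1 of the 10, and 12 to 63 in Combo against isotype. It gave 0 to 7 when Combo was set against agoCD40, 4 to 71 against antiIL1R1 and 0 to 13 for the interaction. Depth limits Tlr9 most, with 0 to 32 counts per library.

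Where an alternative reversed a direction, the value is given here. In agoCD40 against isotype, Ly96 was 0.00436 with total-count scaling. Tlr7 was 0.136 by limma with pseudocount 1 and 0.258 by limma with pseudocount 0.1. Irak3 was -0.0094 by limma with pseudocount 1, -0.0135 by limma with pseudocount 0.1, -0.114 with the mitochondrial covariate and -0.0112 without isotype 2 and antiIL1R1 2 together. Tlr9 was 0.115 by limma with pseudocount 0.1 and 0.806 with the mitochondrial covariate. Tlr5 was -0.17 without isotype 2 and antiIL1R1 2 together. In antiIL1R1 against isotype, Myd88 was 0.0139 with RLE scaling, 0.0131 by DESeq2, 0.0213 without the filter, 0.00078 with the replicate block and 0.019 on only the groups compared. Tlr5 was 0.0015 without the filter, 0.00284 with the replicate block, 0.0462 by limma with pseudocount 1, 0.112 by limma with pseudocount 0.1 and 0.0746 with the mitochondrial covariate. Tlr4 was 0.0608 with the mitochondrial covariate. In Combo against isotype, Ly96 was 0.125 with total-count scaling, 0.0712 by limma with pseudocount 1, 0.0754 by limma with pseudocount 0.1 and 0.00996 with the mitochondrial covariate. Tlr4 was -0.101 without isotype 2 and antiIL1R1 2 together. In Combo against agoCD40, Tlr2 was 0.0541 with total-count scaling, 0.0682 by limma with pseudocount 1 and 0.0987 by limma with pseudocount 0.1. Tlr7 was -0.00137 by limma with pseudocount 1. In Combo against antiIL1R1, Tlr3 was 0.000627 with total-count scaling. Cd14 was 0.0659 with total-count scaling, 0.145 by limma with pseudocount 1 and 0.174 by limma with pseudocount 0.1. Leaving out 1 library also turned some directions, and the lowest and highest log2 fold changes were then as follows. In agoCD40 against isotype these ranges were -0.413 to 0.115 for Tlr2, -0.228 to 0.555 for Tlr5, -0.493 to 0.0873 for Tlr7, -0.693 to 1.23 for Tlr9, -0.246 to 0.0553 for Ly96, -0.0203 to 0.174 for Myd88 and -0.0901 to 0.152 for Irak3. In antiIL1R1 against isotype these ranges were -0.64 to 0.0983 for Tlr4, -0.258 to 0.525 for Tlr5, -0.329 to 0.214 for Ly96 and -0.0895 to 0.124 for Myd88. In Combo against isotype these ranges were -0.426 to 0.103 for Tlr2, -0.00968 to 0.0665 for Tlr3, -0.101 to 0.638 for Tlr4, -0.622 to 0.231 for Tlr5, -0.0174 to 0.563 for Tlr7 and -0.325 to 0.157 for Ly96. In Combo against agoCD40 these ranges were -0.181 to 0.131 for Tlr2, -0.264 to 0.236 for Ly96 and -0.0358 to 0.139 for Myd88. In Combo against antiIL1R1 these ranges were -0.289 to 0.128 for Cd14, -0.281 to 0.317 for Ly96 and -0.00295 to 0.196 for Myd88. In the interaction these ranges were -0.221 to 0.378 for Ly96 and -0.0808 to 0.14 for Myd88.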

Other observations

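For most of the 10 genes, CPM before TMM scaling per TPM varied little between libraries, but not for all. Taken relative to its median over the 12 libraries, this ratio was 0.338 for Tlr7 in agoCD40 2, where 41 counts came with 1.51 TPM, and up to 1.19 for Tlr7 elsewhere. It ranged from 0.644 to 1.22 for Tlr4, from 0.646 to 1.14 for Irak3 and from 0.827 to 1.51 for Tlr5, against 0.910 to 1.21 for Myd88. On the TPM scale agoCD40 2 therefore had the highest Tlr7 value of all 12 libraries, while its CPM was the lowest of its group.

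Of the marker lists, 4 are not given above. Conventional dendritic cell markers, 6 of 6 tested, summed to 6.96 to 18.1 CPM. Bile duct markers, 4 of 4 tested, summed to 4.24 to 7.84 CPM in isotype and 10.2 to 11.4 CPM in agoCD40, without overlap. Epcam and Krt19 of that list overlapped. Liver endothelium markers, 7 of 7 tested, summed to 73.4 to 244 CPM, and stellate cell markers, 6 of 6 tested, to 166 to 436 CPM.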
